A study of Mus musculus with 23 samples.

Results

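The libraries described here are 8 of the 23 of a study of mouse oligodendrocyte progenitor cells (OPCs), and they compare progenitors in which Sox6 was targeted by CRISPR with progenitors that carry a non-targeting guide. They were chosen by their labels alone, namely every library of the Sox6 experiment kept in progenitor growth medium. The control group has 3 libraries, guide 1 has 2 and guide 2 has 3. All were made from OPCs grown from epiblast stem cell lines (EpiSC5 and 129O1, from strains 129SvEv and 129S1/SvImJ, with the line of each library not used here) and sorted for CD140a and NG2. Every cell, controls included, received a lentivirus built on the CRISPRv2 backbone and then spent 96 hours under puromycin selection (500 ng/mL). Each group is a selected mixed population and not a clone, and per the labels targeted and control cells came from one original batch of OPCs. RNA was taken after 60 hours in growth medium with PDGFA and bFGF, enriched for poly(A) and sequenced without marking strand.

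SOX6 is a transcription factor of the SoxD group. It binds DNA through its HMG box, has no activation domain of its own, and acts through partner proteins. In the oligodendrocyte lineage of mice SoxD proteins are known for holding progenitors back from early differentiation, in part by opposing SOX10, the factor that switches on myelin genes. The lineage runs from dividing progenitors through committed precursors marked by Gpr17 to myelin-forming oligodendrocytes.

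The guide sequences are shown because they are the treatment that differs between the groups. Each line gives the target as it stands in Sox6 with the neighbouring NGG motif (PAM) in capitals, and the non-targeting guide has no target and therefore no capitals.
Non-targeting guide: aagcctacttcaccggtcgg
SOX6 guide 1: ttgacggaatgaactgtacgGGG
SOX6 guide 2: agaacacgctttgagaacctGGG
The guide 1 target lies at chr7:115580612-115580631 (GRCm38) on the plus strand, in exon 9 of 17 of transcript ENSMUST00000072804.10, at codon 305 of 827. The guide 2 target lies at chr7:115512747-115512766 on the minus strand, in exon 14 of the same transcript, at codon 547. Sox6 itself runs on the minus strand from 115470872 to 116038796. Guide 1 matched 12 and guide 2 matched 10 of its 16 annotated transcripts, and the non-targeting guide matched 0 annotated transcripts of any gene. The sites stand 36.8% and 66.0% of the way along the coding sequence.

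Total counts ran from 13967438 to 16958611 per library, and 13358 of 35385 gene symbols had enough counts to be tested. Levels are given as CPM, the count of a gene relative to the scaled total of all tested genes in its library, and changes as log2 with a standard error (SE) from edgeR. Nothing in the labels tells whether libraries of one group came from separate cultures, and the p-values therefore reflect the scatter of these libraries alone, part or all of which may be technical. The controls were uneven. The Spearman correlation across genes between a library's deviation from its group and transcript length was -0.472, -0.0090 and 0.493 for controls A, B and C. The same value ran from -0.202 to 0.125 over the targeted libraries. Results that move with control A or C are named below. The defining progenitor genes Olig1 and Olig2 were abundant, at 4115 and 1594 CPM in controls, and the genes of the sorted surface proteins, Pdgfra and Cspg4, stood at 21.9 and 300.3 CPM. Markers of myelinating cells such as Mag, Mog and Mobp were below the count filter. RNA came from whole wells, so fewer cells of a type and less RNA per cell cannot be told apart.

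Sox6 RNA was lower in all 5 targeted libraries than in any control. It read 163, 201 and 235 CPM in controls A, B and C, 91.1 and 76.5 CPM with guide 1 and 74.4, 67.5 and 87.5 CPM with guide 2. The groups did not overlap, and the lowest control was well above the highest targeted library. The change over both guides was log2 -1.32 (SE 0.127, adjusted p = 0.00147), and the call was kept in every alternative setting. The targeted mean was 39.7% of the control mean. The edits themselves were not analysed here, and the RNA level checks them only in part.

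Among 13 tested members of the SOX family, 4 fell and 1 rose (38.5% called, against 3.59% of all genes). The falls include Sox6 itself, the targeted gene. Per transcript length, the controls held Sox2 at 240.0 TPM, Sox9 at 77.0 TPM, Sox6 at 66.9 TPM, Sox10 at 12.4 TPM and Sox13 at 9.29 TPM, so that Sox10 and Sox13 were the scarcer of these 5 genes in progenitors. Sox10, the lineage's main activator of myelin genes, read 24.1, 32.7 and 30.6 CPM in the controls, 13.8 and 15.3 CPM with guide 1 and 14.1, 15.3 and 15.98 CPM with guide 2. The change was log2 -0.97 (SE 0.114, adjusted p = 0.00356). Sox9, a progenitor and astroglial factor, read 264, 293 and 314 CPM in the controls, 197 and 191 CPM with guide 1 and 180.3, 169 and 186 CPM with guide 2, a change of -0.64 (adjusted p = 0.00147). The calls of Sox10 and Sox9 were kept in every alternative. Sox2, a stem cell factor, changed by -0.18 (adjusted p = 0.0247, call lost in 9 of 15 alternatives, with adjusted p up to 0.127). The other SoxD genes are Sox5 and Sox13. Sox13 rose by 0.45 (adjusted p = 0.0267, call lost in 10 of 15 alternatives, with adjusted p up to 0.391). Sox5 averaged 36.2 CPM over controls, 44.9 CPM over guide 1 and 44.7 CPM over guide 2 libraries, and did not pass the test (log2 0.31, adjusted p = 0.0522). Sox8, which acts beside SOX10, had log2 0.074 (adjusted p = 0.387).

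Over both guides, edgeR called 479 of 13358 genes (3.59%), 261 higher (1.95%) and 218 lower (1.63%). Changes were modest in most of these genes. The median size was 0.40 on the log2 scale for genes that rose and 0.46 for genes that fell, and 19 rises and 37 falls reached 2-fold. In 1581 genes (11.8% of those tested) every targeted library lay beyond every control, and this held for 259 of the 261 rises and 195 of the 218 falls. With a single guide the test called 372 genes for guide 1 (2.78%) and 273 for guide 2 (2.04%), and these contrasts share the control libraries. The guide 1 count was 7 and 20 without guide 1 library A or B, 177 without control B, 614 without control C, and 226 and 238 without guide 2 library A or B. The guide 2 count was 78, 80 or 89 when its own library A, B or C was left out, 94 without control B, and 132 without either guide 1 library. The count over both guides was not stable. DESeq2 gave 816 and an offset for transcript length gave 237. Leaving out control B gave 185, leaving out either guide 1 library gave 149 (A) or 154 (B), and leaving out a guide 2 library gave 248 (A), 274 (B) or 277 (C). Without controls A and C together it was 152, and the share of rises went from 54.5% to 63.2%.

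**Figure D1:**
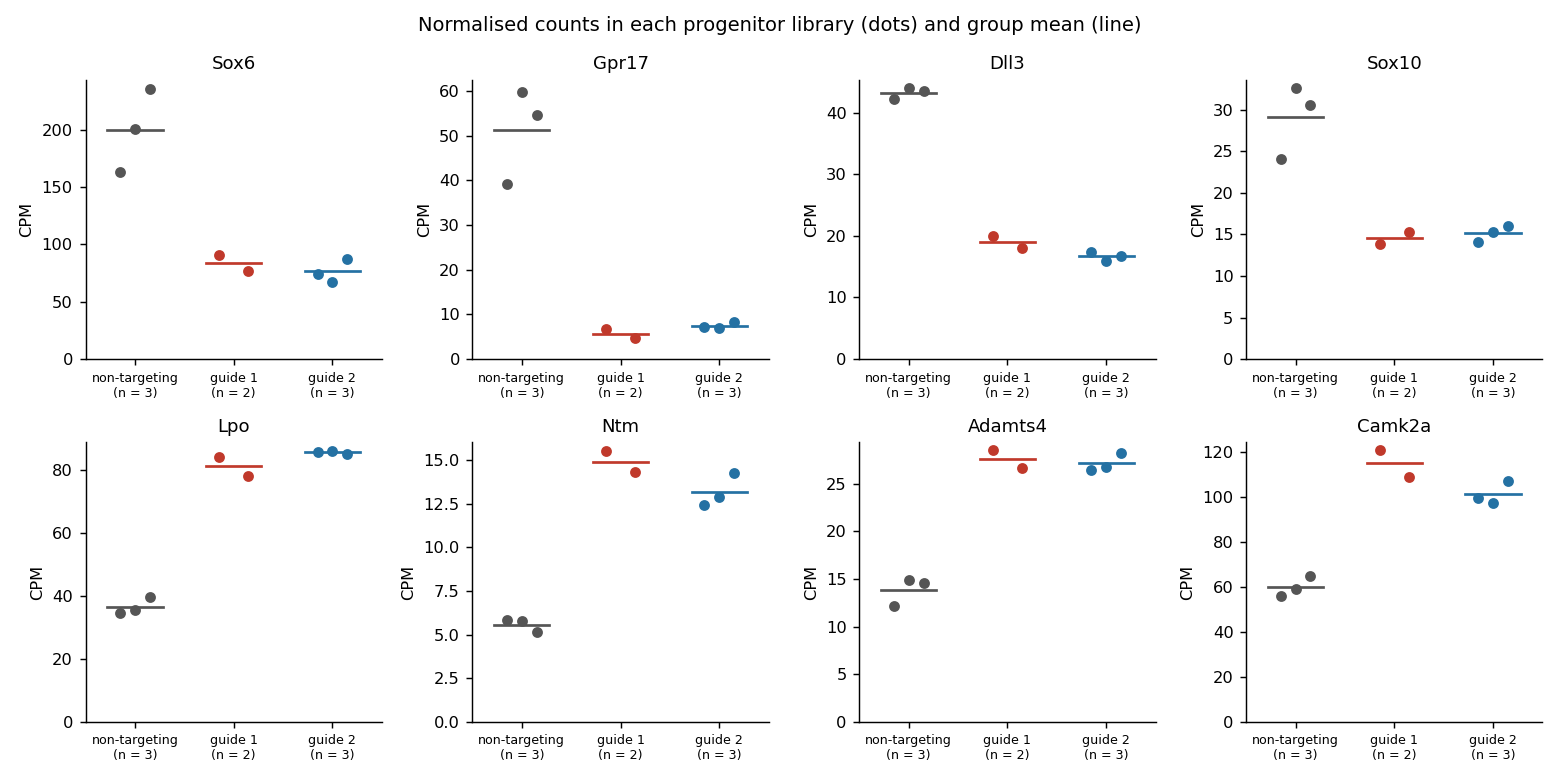
CPM of 8 genes in each of the 8 progenitor libraries, with dots for libraries, a line for the group mean and axes that start at 0. Sox6, Gpr17, Dll3 and Sox10 lie lower, and Lpo, Ntm, Adamts4 and Camk2a higher, in all 5 targeted libraries than in the 3 controls. All 8 genes meet the rule for the largest changes, which required this separation.

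Among called genes with at least 10 CPM in the higher group and no overlap between groups, the largest fall was in Gpr17, which encodes a receptor of committed oligodendrocyte precursors. It read 39.2, 59.8 and 54.7 CPM in the controls, 6.63 and 4.79 CPM with guide 1 and 7.19, 7.01 and 8.30 CPM with guide 2. Even the lowest control stood far above the highest targeted library. The fitted change over both guides was log2 -2.97 (SE 0.162, adjusted p = 0.000139), and the ratio of mean CPM in controls to that in targeted libraries was 7.55. Gpr17 lies inside Lims2 on the opposite strand, and reads of this kit do not show strand, so the fall of Lims2 (-2.05) may not be a separate one.

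Other large falls were in C1ql1, Grik3, Pstpip2 and Dll3. C1ql1, which encodes a secreted C1q-like protein, read 13.8, 15.1 and 14.0 CPM in the controls, 3.70 and 4.60 CPM with guide 1 and 5.03, 4.43 and 5.19 CPM with guide 2. Grik3, a kainate receptor subunit, read 60.0, 75.9 and 86.1 CPM in the controls, 28.7 and 26.0 CPM with guide 1 and 33.1, 32.2 and 29.3 CPM with guide 2. Pstpip2, an actin-associated adaptor, read 12.3, 13.3 and 16.2 CPM in the controls, 4.40 and 3.62 CPM with guide 1 and 4.31, 5.01 and 4.15 CPM with guide 2. A lack of overlap between groups was a condition of the choice of these genes. Their log2 changes were -1.67, -1.33 and -1.71 with adjusted p of 0.000737, 0.000740 and 0.00109. Dll3, an atypical Notch ligand, was the most even of the group, at 42.3, 43.9 and 43.5 CPM in the controls, 20.0 and 18.0 CPM with guide 1 and 17.4, 15.9 and 16.7 CPM with guide 2. Its change was log2 -1.28 (SE 0.0666, adjusted p = 0.000127). All of these calls were kept in every alternative, as was that of Tnr (-1.02), which encodes the matrix glycoprotein tenascin R.

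Other falls taken by the rule were Pcdh15 (-1.52), a protocadherin, Ppfibp1 (-1.32), a liprin, Lrp1 (-1.26), an endocytic lipoprotein receptor, Tenm2 (-1.12), a teneurin, and Fam131b (-1.06), with adjusted p from 0.00199 to 0.0183. Without controls A and C, a fit with 1 control library, each missed the threshold. The log2 change and adjusted p were then -1.58 and 0.0686 for Pcdh15, -1.07 and 0.0511 for Ppfibp1, -1.02 and 0.130 for Lrp1, -1.15 and 0.137 for Tenm2, and -1.09 and 0.0940 for Fam131b. With the length offset that of Pcdh15 was 0.14 and that of Ppfibp1 0.0843. Tenm2 also lost its call without control B (0.0704) and without guide 1 library A or B (0.0888 and 0.0646). Dop1a was less secure, since control C at 16.6 CPM lay closer to the targeted libraries (9.44 to 15.1 CPM) than to controls A and B (37.0 and 34.1 CPM), and its call (-1.21, adjusted p = 0.0413) was lost in 9 of 15 alternatives, with adjusted p up to 0.282. The aggrecanase gene Adamts5 (-0.98, adjusted p = 0.0282) had its call lost in 10 of 15 alternatives, with adjusted p up to 0.388.

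Lpo encodes lactoperoxidase, a secreted haem peroxidase. It read 34.7, 35.5 and 39.5 CPM in the controls, 84.3 and 78.3 CPM with guide 1 and 85.7, 86.2 and 85.0 CPM with guide 2. The lowest targeted library stood far above the highest control. The change was log2 1.19 (SE 0.0593, adjusted p = 0.000127). Ntm, for the neuronal adhesion protein neurotrimin, had the largest rise under the same conditions, at 5.81, 5.75 and 5.13 CPM in the controls, 15.5 and 14.3 CPM with guide 1 and 12.4, 12.9 and 14.3 CPM with guide 2. Its change was log2 1.33 (SE 0.119, adjusted p = 0.00109). Camk2a, the alpha subunit of a calcium-activated kinase, read 56.2, 59.2 and 65.05 CPM in the controls, 121 and 109 CPM with guide 1 and 99.7, 97.5 and 107 CPM with guide 2 (0.85, adjusted p = 0.000740). Kcnc4, a voltage-gated potassium channel gene, read 27.8, 25.0 and 30.7 CPM in the controls, 47.7 and 47.1 CPM with guide 1 and 52.4, 47.8 and 53.1 CPM with guide 2 (0.82, adjusted p = 0.00138). The calls of Lpo, Ntm, Camk2a and Kcnc4 were kept in every alternative.

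Genes known from maturing oligodendrocytes were among the rises. Adamts4, a matrix-cleaving protease made by oligodendrocytes, read 12.1, 14.9 and 14.5 CPM in the controls, 28.5 and 26.6 CPM with guide 1 and 26.4, 26.7 and 28.2 CPM with guide 2, a change of log2 0.98 (SE 0.0936, adjusted p = 0.00147), kept in every alternative. Gpr37, an orphan receptor of the same cells, read 9.28, 10.8 and 9.62 CPM in the controls, 20.7 and 19.3 CPM with guide 1 and 18.5, 16.9 and 20.4 CPM with guide 2, a change of 0.96 (adjusted p = 0.00279, and 0.0732 without controls A and C). Enpp2, which encodes the lysophospholipase autotaxin, rose by 0.91 (adjusted p = 0.0160). It lost its call without guide 1 library A or B (0.0631 and 0.0692) and without controls A and C (0.121).

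The remaining rises taken by the rule have other known roles. Car8, a carbonic anhydrase-related protein, rose by 1.30, Dll4, a Notch ligand, by 1.17, Fbxo32, a ubiquitin ligase adaptor known from muscle atrophy, by 1.02, Aldh1a1, which makes retinoic acid, by 0.87, and Calb2, the calcium-binding protein calretinin, by 0.88. Their adjusted p ran from 0.00236 to 0.0182. Without controls A and C the adjusted p was 0.0538 for Car8, 0.101 for Dll4, 0.0571 for Fbxo32, 0.0525 for Aldh1a1 and 0.110 for Calb2. Fbxo32 also lost its call without control B (0.0579) and without guide 1 library A (0.0617), and Calb2 without control B (0.0585), guide 1 library A (0.0769) or guide 2 library A (0.0513). Dsc1, a desmosomal cadherin (0.98), and Btbd3 (0.84) lay near the threshold, with adjusted p of 0.0404 and 0.0466, and lost their calls in 11 and 10 of 15 alternatives.

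**Figure D2:**
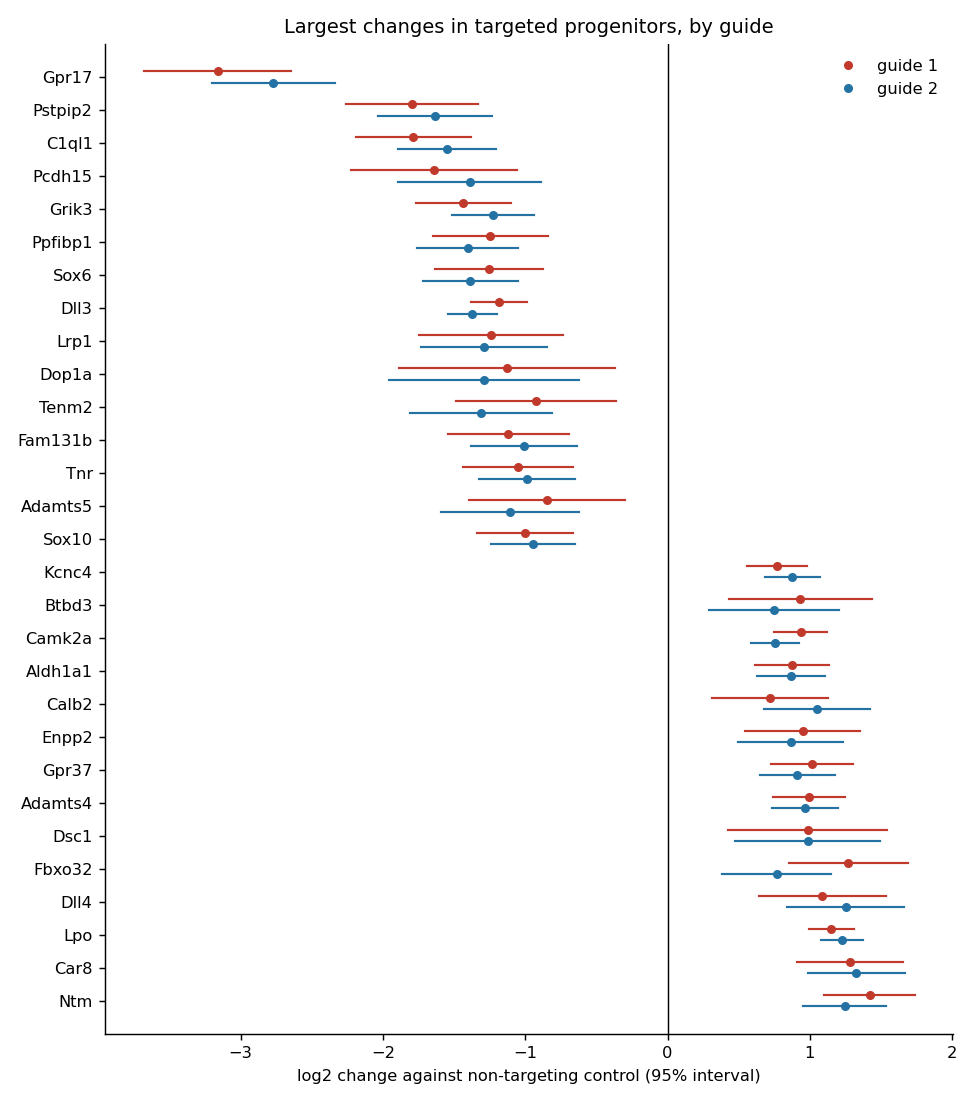
Log2 change against control for 29 genes with large changes (15 falls and 14 rises), with a dot for each guide's estimate and a bar for its 95% interval. The estimates of guide 1 and guide 2 lie on the same side of 0 for each of the 29 genes. The choice of genes set this in advance, since every targeted library had to lie beyond every control. Both guides are set against the same 3 control libraries.

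The genes below were ranked by difference of mean CPM instead of ratio, a rule that by its nature takes well-expressed genes. It too required that the groups did not overlap. Slc4a4, a sodium bicarbonate cotransporter, read 415, 461 and 507 CPM in the controls, 696 and 687 CPM with guide 1 and 589, 601 and 619 CPM with guide 2 (0.49, adjusted p = 0.00522), kept in every alternative. The cytoskeletal regulator gene Basp1 changed by -0.42 (adjusted p = 0.00570, and 0.0527 without controls A and C). Tnc, the matrix protein tenascin C, stood between 972.1 and 1391.9 CPM in all libraries and changed by -0.32 (adjusted p = 0.0142, call lost in 4 of 15 alternatives, with adjusted p up to 0.141). Gpm6b, which encodes a membrane glycoprotein of neurons and glia, rose by 0.22 (adjusted p = 0.00672, and 0.0511 without control B). Sdc3, a heparan sulfate proteoglycan, rose by 0.27 (adjusted p = 0.0121, call lost in 3 of 15 alternatives, with adjusted p up to 0.0909). Igfbp5, which binds insulin-like growth factors, rose by 0.60 (adjusted p = 0.0168, call lost in 3 of 15 alternatives, with adjusted p up to 0.0767). Mmp15, a membrane-bound metalloprotease gene (-0.22), and the kinase gene Map4k4 (0.17) had small changes, and lost their calls in 6 and 6 of 15 alternatives.

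Lists of lineage genes moved in a mixed way. Because members and lists were chosen with earlier results of these data known, the share called in a list is a description only. Of 23 tested progenitor genes, 6 fell and 0 rose (26.1% called, against 3.59% of all genes). Their median log2 change was -0.18 against -0.0049 for all genes. The 6 are C1ql1, Pcdh15, Tnr, Lhfpl3, Cacng4 and Sox6 itself, whose fall is that of the targeted gene. Lhfpl3, a tetraspan membrane protein gene, read 100.4, 99.7 and 105 CPM in the controls, 58.4 and 56.8 CPM with guide 1 and 56.6, 55.4 and 54.4 CPM with guide 2 with no overlap (log2 -0.85, SE 0.0433, adjusted p = 0.000127), and its call was kept in every alternative. Cacng4, an auxiliary subunit of AMPA receptors, had its call lost in 13 of 15 alternatives, with adjusted p up to 0.323. Olig1 and Olig2, the factors that define the lineage, did not pass the test, with log2 changes of 0.0094 and -0.000615 and adjusted p of 0.935 and 0.997. Pdgfra, the growth factor receptor used in the sort, averaged 21.9 CPM over controls, 12.8 CPM over guide 1 and 12.9 CPM over guide 2 libraries (log2 -0.76, adjusted p = 0.232). Cspg4, which encodes NG2, averaged 300.3, 233.3 and 246.5 CPM in the same order (log2 -0.33, adjusted p = 0.114). Ptprz1, a receptor phosphatase of progenitors, averaged 4226, 5152 and 4511 CPM (log2 0.19, adjusted p = 0.157).

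Among myelin and mature oligodendrocyte genes, 7 of the 17 tested rose, 2 fell (52.9% called, against 3.59% of all genes) and the median was 0.34. The number of rises was 4 with the length offset, without control B or without guide 2 library A, 3 of 20 tested without guide 1 library A or B, and 1 of 20 without controls A and C, with medians from 0.31 to 0.53 in these fits. Mbp, myelin basic protein, stood at a very low level and read 0.354, 0.750 and 0.570 CPM in the controls, 2.17 and 3.68 CPM with guide 1 and 2.46, 2.36 and 2.38 CPM with guide 2. All targeted libraries lay above all controls, at log2 2.22 (SE 0.355, adjusted p = 0.0142), and the call was lost with the length offset (0.0781), without guide 1 library B (0.0611) and without controls A and C (0.190). Cnp, a myelin enzyme already expressed in progenitors, read 132, 159 and 126 CPM in the controls, 219.9 and 208 CPM with guide 1 and 199.6, 180.1 and 206 CPM with guide 2 (0.56, adjusted p = 0.0117, and 0.0587 without guide 1 library A and 0.106 without controls A and C). Rises in the list also included Adamts4, Gpr37 and Car2 (0.34, call lost in 7 of 15 alternatives, with adjusted p up to 0.156). The members that fell were the connexin gene Gjc3 (-0.92) and Gsn (-0.83), which encodes the actin-severing protein gelsolin. Gsn read 37.1, 43.2 and 34.2 CPM in the controls, 19.5 and 18.4 CPM with guide 1 and 25.0, 24.1 and 24.5 CPM with guide 2 and kept its call in every alternative, and that of Gjc3 was lost with the length offset (0.0503) and without controls A and C (0.0512). The summed level of the list was 274.3 to 322.6 CPM in controls and 350.8 to 393.2 CPM in targeted libraries.

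Of 13 genes of newly formed oligodendrocytes 23.1% were called, against 3.59% of all genes. Gpr17 and Lims2 fell and Bcas1 rose by 0.30 (adjusted p = 0.0292, call lost in 9 of 15 alternatives, with adjusted p up to 0.869). The list had a median of 0.034 that became -0.093 with the length offset and -0.16 without controls A and C. As a further reference, genes were split by their mean TPM in sorted OPCs and sorted oligodendrocytes of the same study. Of 551 genes at least 4-fold higher in sorted oligodendrocytes 30 rose (5.44%) and 33 fell (5.99%), with a median of -0.024. Of 576 genes at least 4-fold higher in sorted OPCs 30 rose (5.21%) and 50 fell (8.68%), with a median of -0.14. Of the 12211 genes within 4-fold, 200 rose (1.64%) and 135 fell (1.11%). Among all genes tested 1.95% rose and 1.63% fell.

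**Figure D3:**
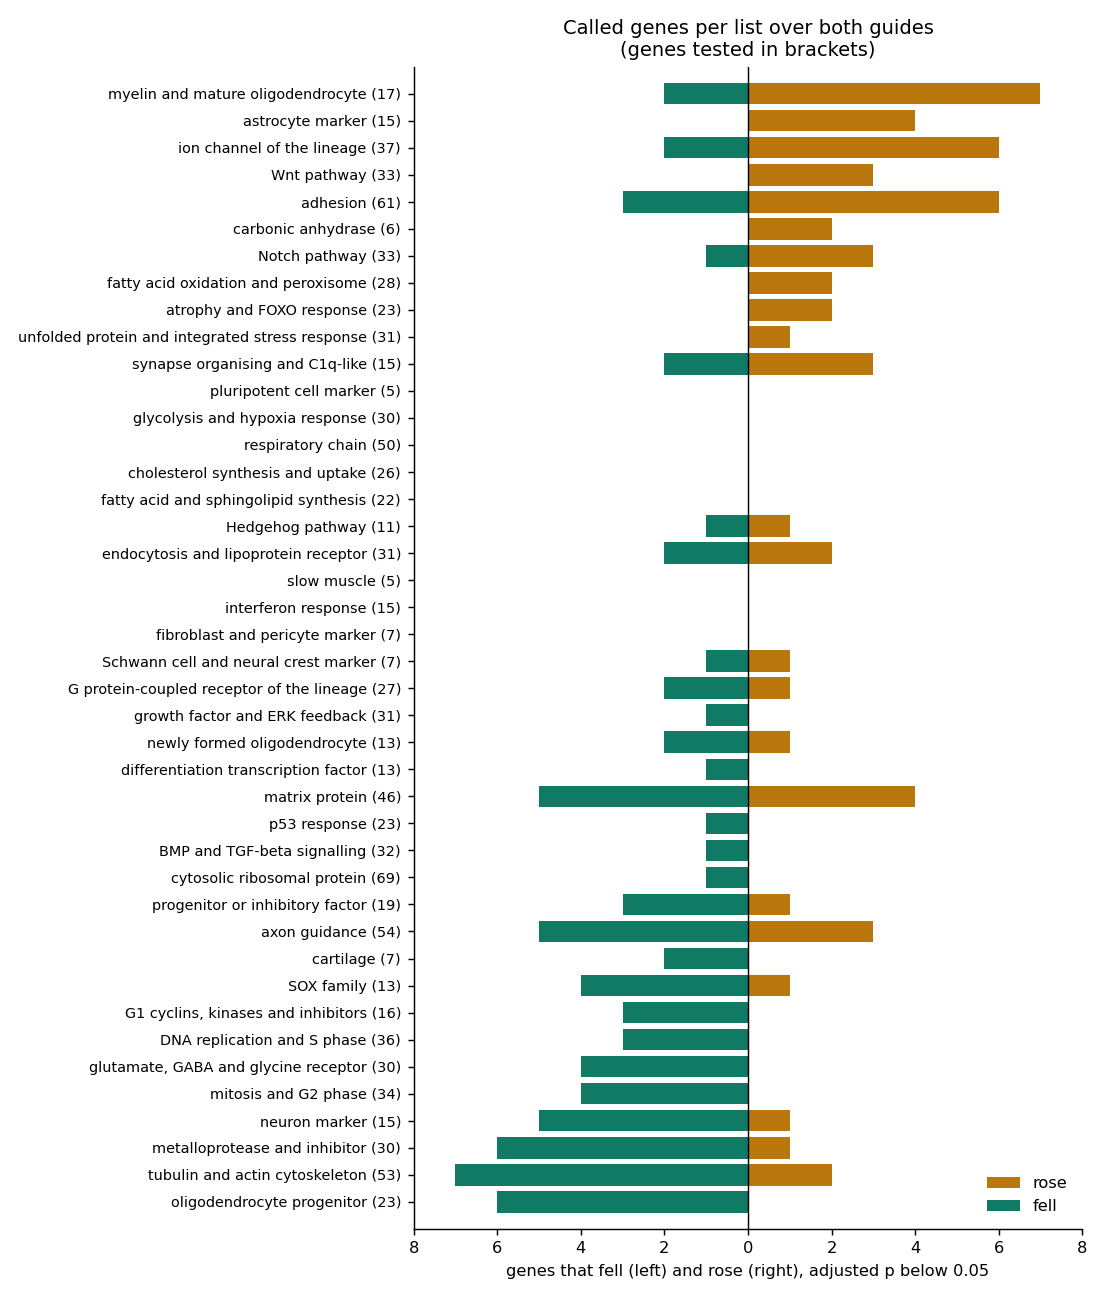
Number of genes that rose (right) and fell (left) over both guides in each list with at least 5 genes tested, with the number tested in brackets. Myelin genes lead the rises (7 of 17), against 1.95% of all genes. By number, cytoskeleton (7 of 53), progenitor (6 of 23, with the targeted gene Sox6) and metalloprotease genes (6 of 30) lead the falls, against 1.63%. Lists differ in size, and some shorter ones, such as neuron markers (5 of 15) and the SOX family (4 of 13, with Sox6), had a larger share of falls.

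Called genes made up 12.1% of the Notch list, 18.2% of the Hedgehog list, 9.09% of the Wnt list, 3.12% of the BMP and TGF-beta list and 3.23% of the growth factor and ERK list, against 3.59% of all genes. Of 33 tested Notch genes 3 rose and 1 fell (median 0.12), and the ligand genes moved apart. Dll3 fell and Dll4 rose. Dll4 read 3.68, 5.56 and 4.84 CPM in the controls, 9.33 and 10.7 CPM with guide 1 and 12.04, 10.7 and 10.9 CPM with guide 2. Lfng, a glycosyltransferase that modifies Notch receptors, read 317, 299.6 and 272 CPM in the controls, 392.1 and 404 CPM with guide 1 and 400.4, 403 and 388 CPM with guide 2 (0.43, adjusted p = 0.00501), and its call was kept in every alternative. Hey1, a Notch target gene and repressor, rose by 0.29 (adjusted p = 0.0117, call lost in 4 of 15 alternatives, with adjusted p up to 0.124). The receptor gene Notch1 (560.4 CPM in controls, log2 0.15) and the target genes Hes1 (log2 0.015) and Hes5 (log2 0.27) did not pass the test, with adjusted p of 0.447, 0.948 and 0.264.

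Of 33 Wnt pathway genes, Wnt5a (0.53) and the receptor genes Fzd5 (0.48) and Fzd9 (0.27) rose and 0 fell, with a median of 0.11. Their calls were lost in 5, 10 and 9 of 15 alternatives, respectively. Of 32 genes of BMP and TGF-beta signalling, the inhibitor of differentiation gene Id2 fell (-0.48, adjusted p = 0.0461, call lost in 11 of 15 alternatives, with adjusted p up to 0.163). Of 11 Hedgehog genes the receptor gene Ptch1 rose (0.32) and the co-receptor gene Cdon fell (-0.38), and their calls were lost in 8 and 9 of 15 alternatives. Of 31 genes of growth factor and ERK feedback, the one called was the cyclin gene Ccnd1. Of 13 differentiation transcription factors, Sox10 was the one called (7.69%, against 3.59% of all genes), and Myrf, the myelin regulatory factor, stood at 1.32 CPM in controls (log2 0.25, adjusted p = 0.820). A list of 19 factors that mark progenitors or hold back differentiation had Hey1 as its rise and Id2, Sox2 and Sox9 as its falls (21.1% called).

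Cell cycle genes gave different values with each guide. Of 34 tested genes of mitosis and G2 phase, 18 fell with guide 1 and 0 with guide 2, against 1.47% and 0.719% of all genes. The median log2 change was -0.47 with guide 1 and -0.0069 with guide 2, and over the alternatives the guide 2 median lay between -0.063 and 0.059. Prc1, which bundles microtubules in dividing cells, read 259, 226 and 238 CPM in the controls, 167 and 169 CPM with guide 1 and 234, 250.4 and 236 CPM with guide 2. Aurka, a mitotic kinase gene, read 84.6, 76.7 and 73.7 CPM in the controls, 49.8 and 51.9 CPM with guide 1 and 78.7, 82.2 and 72.1 CPM with guide 2. Both guide 1 libraries lay below all controls in each. All guide 2 libraries lay within the control range for Prc1, and for Aurka library C was just under it. The summed level of the list was 5096 to 5644 CPM in controls, 3971 and 3877 CPM with guide 1 and 4850 to 5535 CPM with guide 2. In 29 of the 34 genes both guide 1 libraries lay below every control, against 16% of all genes, and with guide 2 this held for 1 of 34, against 8.53%.

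Other stages of the cycle showed the same order with a smaller gap. Of 36 genes of DNA replication and S phase, 9 fell with guide 1 and 0 with guide 2, against 1.47% and 0.719% of all genes, with medians of -0.37 and -0.15. The 9 became 14 with DESeq2, 5 without control A or guide 2 library C, 2 without control B or guide 2 library B, 1 without controls A and C, and 0 with the length offset, without either guide 1 library or without guide 2 library A. Both guide 1 libraries lay below every control in 63.9% of the S phase genes, against 16% of all genes. All guide 2 libraries did so in 25%, against 8.53%. Of 16 G1 cyclins, kinases and inhibitors 4 fell with guide 1 and 0 with guide 2, with medians of -0.27 and -0.11. The 4 became 2 with the length offset or without controls A and C, 1 without control B, and 0 without either guide 1 library. The libraries of guide 1 lay below every control in 68.8% of the G1 genes and those of guide 2 in 25%. Ccnd1, the cyclin of growth factor entry into the cycle, read 562, 517 and 494 CPM in the controls, 336 and 338 CPM with guide 1 and 469, 472 and 419 CPM with guide 2. Here guide 2 also lay below all controls, but nearer to them than guide 1. Its change was -0.64 with guide 1 (adjusted p = 0.00544) and -0.21 with guide 2 (adjusted p = 0.175). Over both guides Ccnd1 changed by -0.42 (adjusted p = 0.00603), kept in every alternative.

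The direct test of guide 2 against guide 1 called 0 genes by edgeR, with a smallest adjusted p of 0.116 and 1106 genes (8.28%) at an unadjusted p below 0.05. Of the 34 mitosis genes, 30 had an unadjusted p below 0.05, with a median difference of 0.46. Of the 36 S phase genes 15 did, with a median difference of 0.21. DESeq2 called 112 genes between the guides (0.838%), 94 higher with guide 2 and 18 lower, and 20 of the 34 mitosis genes were among them. The edgeR count was 26 without control A, of which 9 were mitosis genes, and 31 with no count filter, of which 9 were mitosis genes. With 1 guide 1 library left out, 0 mitosis genes were called for guide 1 by edgeR, with medians of -0.48 without A and -0.46 without B. The guide 1 count of 18 became 10 without guide 2 library A, 12 without control B, 5 without controls A and C, 11 with the length offset and 25 with DESeq2. Guide 1 has only 2 libraries, and whether the gap comes from the guide, the infected population or the culture cannot be told apart, since each guide was used in one group.

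**Figure D4:**
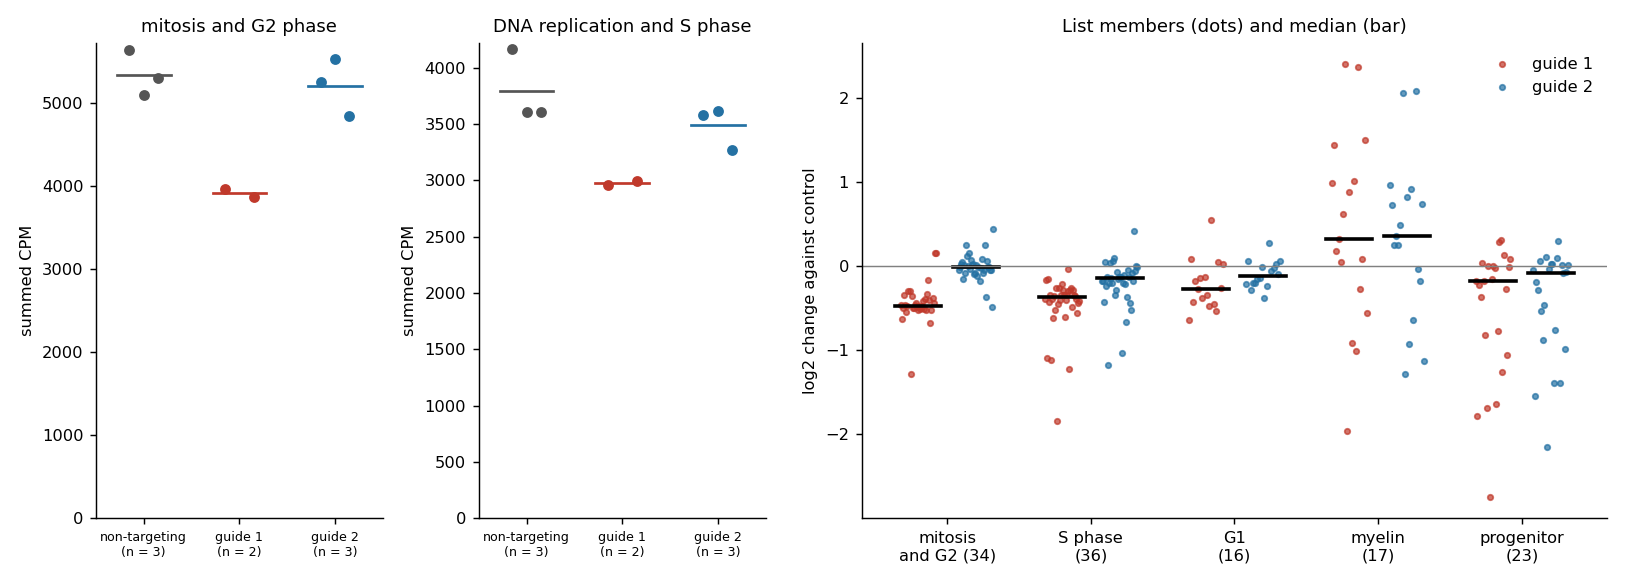
Left and middle, summed CPM of the mitosis and S phase lists in each library, with lines for group means. Right, log2 change against control of every tested member of 5 lists for each guide, with the list median as a bar. Guide 1 medians lie lower in the cell cycle lists (-0.47 and -0.0069 for mitosis), though guide 2 was the lower for 2 of 34 mitosis, 6 of 36 S phase and 6 of 16 G1 genes. The myelin medians are 0.32 and 0.36.

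Over both guides the cell cycle lists held 4 calls in mitosis (11.8%), 3 in S phase (8.33%) and 3 in G1 (18.8%), all of them falls, against 3.59% of all genes called. For mitosis the count was 16 with DESeq2, 12 with no count filter, 7 without control C, and 0 or 1 with the length offset, the replicate block or any other library left out. For S phase it was 9 with DESeq2, 5 with no count filter, and 0 or 1 with the length offset, the replicate block or any library but control C left out. For G1 it was 1 with the length offset, without control B or without either guide 1 library. They include Aurka (-0.32), Kif11 (-0.31), Prc1 (-0.26) and Ect2 (-0.30) in mitosis, Cdt1 and Chaf1a in S phase and Ccnd1, Ccnd3 and Cdkn1a in G1. Except for Ccnd1, each of these lost its call in at least 5 of 15 alternatives. Cdkn1a, the p53 target and cycle inhibitor p21, fell by 0.26 on the log2 scale (adjusted p = 0.0419) and was the one called gene among 23 of the p53 response (4.35%).

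Receptor and channel genes changed in both directions. Of 30 tested genes for glutamate, GABA and glycine receptors, 4 fell and 0 rose (13.3% called, against 3.59% of all genes). These are Grik3, the AMPA receptor subunit gene Gria2, and the auxiliary subunit genes Cacng4 and Neto1. Neto1 read 158, 172 and 189 CPM in the controls, 119.8 and 119 CPM with guide 1 and 99.8, 113 and 113 CPM with guide 2 (log2 -0.60, SE 0.0690, adjusted p = 0.00344), kept in every alternative. Gria2 read 105, 113 and 129 CPM in the controls, 81.5 and 82.6 CPM with guide 1 and 78.5, 88.7 and 88.7 CPM with guide 2 (-0.47, adjusted p = 0.0142, call lost in 4 of 15 alternatives, with adjusted p up to 0.0743). Of 37 ion channel genes, 6 rose and 2 fell (21.6% called). Kcna2 rose and Kcnd2 fell, and both are voltage-gated potassium channel genes. Kcna2 read 28.3, 36.5 and 33.2 CPM in the controls, 52.5 and 49.4 CPM with guide 1 and 50.7, 50.9 and 52.2 CPM with guide 2 (0.64, adjusted p = 0.00522) and Kcnd2 read 97.1, 111 and 109 CPM in the controls, 73.8 and 73.9 CPM with guide 1 and 69.1, 70.1 and 75.0 CPM with guide 2 (-0.54, adjusted p = 0.00241), and both calls were kept in every alternative. Cacna2d3, a calcium channel subunit, rose by 0.62 (adjusted p = 0.00218, and 0.0527 without controls A and C). The inward rectifier genes Kcnj2, Kcnj10 and Kcnj16 rose by 0.70, 0.30 and 0.32, and the call of each was lost in at least 3 of 15 alternatives.

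Genes of the matrix and of proteases that cut it held called genes in both directions. Of 30 tested metalloproteases and inhibitors 23.3% were called, against 3.59% of all genes. Adamts4 rose and 6 fell, which are Adamts5, Adamts9, Mmp2, Mmp15, Mmp16 and Mmp17. Mmp16, a membrane-bound metalloprotease gene, read 40.5, 42.3 and 44.0 CPM in the controls, 25.8 and 25.0 CPM with guide 1 and 25.5, 24.4 and 23.9 CPM with guide 2 with wide separation (log2 -0.76, SE 0.0583, adjusted p = 0.000737), and it was the one of the 6 that kept its call in every alternative. Of 46 matrix genes 4 rose and 5 fell (19.6% called). Fbln2, an elastic fibre protein, read 183, 172 and 177 CPM in the controls, 224 and 229.8 CPM with guide 1 and 285, 284 and 275 CPM with guide 2 (0.51, adjusted p = 0.000737, and 0.0526 with the length offset), with guide 2 higher than guide 1. Fbn2, which forms microfibrils, read 66.3, 70.5 and 74.2 CPM in the controls, 46.4 and 48.0 CPM with guide 1 and 44.7, 44.8 and 48.1 CPM with guide 2 (-0.60, adjusted p = 0.00123, and 0.102 with the length offset). Sparcl1, a secreted matrix protein, rose by 0.33 (adjusted p = 0.00223) in every alternative.

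Of 61 adhesion genes, 6 rose and 3 fell (14.8% called, against 3.59% of all genes). Cdh20, a cadherin, read 120.4, 129.9 and 133 CPM in the controls, 193 and 196 CPM with guide 1 and 187, 191 and 197 CPM with guide 2 (log2 0.60, SE 0.0466, adjusted p = 0.000737). Cntn1, a contactin, moved the other way and read 244, 266 and 291 CPM in the controls, 160.4 and 155 CPM with guide 1 and 169.6, 166 and 171 CPM with guide 2 (log2 -0.71, SE 0.0571, adjusted p = 0.000740). Neither gene had a targeted library within the control range, and both calls were kept in every alternative. Of 54 axon guidance genes 3 rose and 5 fell (14.8% called). Those that rose are Ntn1, Ntn4 and Slit1, all secreted guidance cues. Ntn1 read 652, 684 and 706 CPM in the controls, 823 and 826 CPM with guide 1 and 860.1, 835 and 820.5 CPM with guide 2 (0.29, adjusted p = 0.00558), kept in every alternative. Those that fell are Sema3a, Sema5b, Sema7a, Plxnb3 and Ephb2, with log2 changes from -1.47 to -0.32, and the call of each was lost in at least 4 of 15 alternatives.

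Of 53 genes of the tubulin and actin cytoskeleton 2 rose and 7 fell (17% called, against 3.59% of all genes). Tpm1, which encodes a tropomyosin, read 172, 166 and 158 CPM in the controls, 118 and 119 CPM with guide 1 and 129, 123 and 131 CPM with guide 2 (-0.42, adjusted p = 0.00241), and Pfn2, a profilin, read 248, 256 and 248 CPM in the controls, 348 and 322 CPM with guide 1 and 317, 319 and 338 CPM with guide 2 (0.40, adjusted p = 0.00254). These moved in opposite directions and kept their calls in every alternative. Mapt, the microtubule protein tau, and Tubb3, a beta-tubulin, changed by -0.89 and -0.74, with adjusted p of 0.112 and 0.105 without controls A and C. Sorcs1, a sorting receptor, was another fall kept in every alternative, at 120.5, 124 and 139 CPM in the controls, 80.1 and 84.4 CPM with guide 1 and 82.3, 88.5 and 82.2 CPM with guide 2 (-0.62, adjusted p = 0.00161).

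Metabolic and stress lists held few or no calls, with at most 7.14% of a list called against 3.59% of all genes. None of 26 cholesterol, 22 fatty acid and sphingolipid synthesis, 30 glycolysis and hypoxia, 50 respiratory chain or 15 interferon response genes passed the test by edgeR, and their medians lay between -0.14 and 0.02. Of 28 genes of fatty acid oxidation and peroxisomes Cpt1a and Acad11 rose. Acad11, an acyl-CoA dehydrogenase gene, was uneven, at 0.779, 0.688 and 0.356 CPM in the controls, 1.53 and 2.45 CPM with guide 1 and 19.5, 3.72 and 7.02 CPM with guide 2. Guide 2 library A stood far above the others, and the call (2.86, adjusted p = 0.0467) was lost in 9 of 15 alternatives, with adjusted p up to 0.391. Of 69 cytosolic ribosomal protein genes Rps12 fell (1.45% called). Of the 69, 59 had a change below 0, against 6839 of all 13358 genes, with a median of -0.08. Of 31 genes of the unfolded protein and integrated stress response Slc7a11, a cystine transporter gene, rose by 0.41 (call lost in 9 of 15 alternatives, with adjusted p up to 0.218).

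Markers of other cell types moved as well, and their part in the other results was not tested. Of 15 tested astrocyte markers 4 rose and 0 fell (26.7% called, against 3.59% of all genes), with a median of 0.28. S100b, Sparcl1, Gja1 and Apoe rose by 0.59, 0.33, 0.23 and 0.43, and lost their calls in 1, 0, 9 and 10 of 15 alternatives. The summed level was 1818 to 1965 CPM in controls and 2226 to 2420 CPM in targeted libraries, without overlap. In 13 of the 15 the log2 change was above 0, against 6519 of all 13358 genes. Some members of the list were scarce. Gfap averaged 0.733 CPM over controls, 0.892 CPM over guide 1 and 1.48 CPM over guide 2 libraries. Aldh1l1 averaged 0.948, 4.17 and 1.52 CPM in the same order. Gjb6, Slc7a10 and Cldn10 were below the count filter. Of 15 neuron markers 5 fell and 1 rose (40% called), with a median of -0.36. Their summed level was 1456 to 1772 CPM in controls and 1320 to 1502 CPM in targeted libraries, which overlap. Gap43 (-0.48), Nefl (-1.07), Nefm (-0.65), Ina (-0.24) and Tubb3 fell, and lost their calls in 2, 7, 3, 12 and 1 of 15 alternatives. Stmn2, a neuronal stathmin, rose from very few counts, at 0.0708, 0.125 and 0.0712 CPM in the controls, 0.939 and 1.41 CPM with guide 1 and 0.839, 1.00 and 1.34 CPM with guide 2, and no fold is given because the controls rest on so few counts. Slc17a6 was at 0 in every library and Nefh, Slc17a7 and Gad2 were below the count filter. Of 7 Schwann cell and neural crest markers 1 rose and 1 fell (28.6% called), with a median of -0.39. Their summed level was 236 to 257 CPM in controls and 187 to 216 CPM in targeted libraries, without overlap, and Ngfr and Foxd3 were below the count filter. Of 14 microglia markers 1 passed the count filter, and of 7 fibroblast and pericyte markers and 5 pluripotent cell markers 0 were called.

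Genes beside Sox6 were examined as well. Within 1 Mb of the gene 39 others are annotated, 11 of them protein-coding, and 7 were tested. By edgeR 0 of the 7 were called, while Pde3b, 1110004F10Rik and Pik3c2a had unadjusted p of 0.0367, 0.0462 and 0.0230. The nearest, 1110004F10Rik, starts 0.601 kb from Sox6 on the opposite strand and stood at 3.15 CPM in controls and 2.39 CPM in targeted libraries (log2 -0.53, adjusted p = 0.279). Reads are not stranded, but Sox6 and this gene do not overlap in the annotation.

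The same guides were also measured in separate libraries kept in a medium that permits differentiation, with 3 libraries a group, and these are given as a description beside the progenitor values. Of the 261 genes that rose in progenitors 259 were measured there. In 237 of them (91.5%) the targeted mean was higher as well, and in 152 (58.7%) every targeted library lay above every control, against 8.69% of all genes measured. Of the 218 genes that fell 216 were measured, with 181 (83.8%) lower on average and 132 (61.1%) without overlap on the lower side, against 8.95%. For the 91.5% and 83.8% no share over all genes is given, so these 2 values cannot be set against a background. Gpr37 is an example of a larger gap there, with a log2 ratio of mean CPM of 1.52 beside 0.96 in progenitors. In every such ratio a small constant was added to both means. Dll3 (-1.89) and C1ql1 (-1.73) were also lower in that medium, while Pcdh15 (-0.12), Dop1a (0.08) and Lrp1 (0.46) overlapped with controls there. The control cells of that medium are other libraries, so no control values are shared. Per the labels targeted and control cells came from one original batch of OPCs, and whether the media shared infected populations was not examined. The 2 media are therefore not taken as independent experiments.

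**Figure D5:**
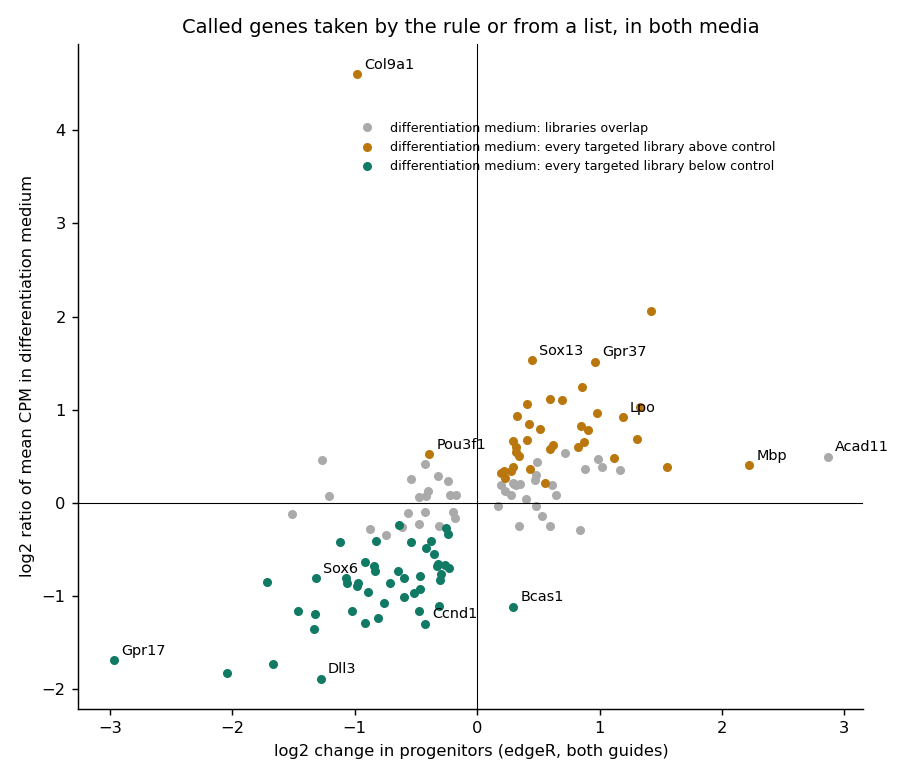
Log2 change over both guides in progenitors (horizontal) against the log2 ratio of targeted to control mean CPM in differentiation medium (vertical) for 130 called genes that the rule took or a list holds. A small constant was added to both means of that ratio. Colours mark whether every targeted library lay above or below every control in that medium, and Col9a1, Bcas1 and Pou3f1 lie on opposite sides in the media.

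In the authors' deposited table, 619 genes had an adjusted p below 0.05, and 387 of them were among the 479 called here, which is 62.5% of their list and 80.8% of this one. The authors' deposited table gives log2 of control over targeted as 2.92 for Gpr17 (adjusted p = 1.52e-45), 1.32 for Dll3 (4.59e-29) and -1.20 for Lpo (1.90e-14). Of the genes taken by the rule, Dop1a (adjusted p = 0.198) and Ccnd1 (adjusted p = 0.0555) did not pass in the authors' deposited table. The mitosis genes Aurka, Kif11, Prc1 and Ect2 did not pass in the authors' deposited table either, with adjusted p of 0.626, 0.294, 0.748 and 0.581.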

How the data were processed

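Poly(A) RNA of 8 progenitor libraries was analysed from estimated counts by gene symbol that the authors deposited (Salmon 0.14.1 and DESeq2, mm10, per the submitters' processing notes), which were rounded to whole numbers. The authors' deposited TPM values, from the same estimates and scaled by transcript length, gave levels compared between genes and the sorted-cell reference. The log2 ratios and adjusted p-values of the authors' deposited table are quoted by name. Library letters come from the table's columns and are not tied to replicate numbers in the labels. Same-letter libraries did not deviate together (r from -0.041 to 0.026), so letters were not taken as pairs.

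Genes passing filterByExpr (minimum count 10, total 15) were tested with edgeR 4.0.16 (R 4.3.3), quasi-likelihood F test, TMM scaling, 1 coefficient per guide and the mean of both guides against controls, with Benjamini-Hochberg adjustment over all genes at 0.05. Alternatives were other scalings, no filter, DESeq2 1.42.0, a transcript length offset, a replicate block, each library left out and, chosen after seeing the data, controls A and C left out together. Fits were tested on simulated counts. Named genes were the 15 largest rises and falls with at least 10 CPM and no overlap, then the 6 largest differences of CPM per direction, plus Sox6, Gpr17, Dll3 and Lpo and list members. Some genes that the rule or a list took are not reported here. Members and lists were chosen with earlier results of these data known. Differentiation-medium counts, also estimated and deposited by the authors, were described without a test.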

Additional observations from a re-analysis of the deposited data

Results flagged for a closer look

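Of the genes called in progenitors, 4 rises (1.54% of those measured) and 6 falls (2.78%) had every targeted library beyond every control in the opposite direction in differentiation medium. These shares are under those of all genes measured there, of which 8.95% lay below every control and 8.69% above. Among such opposite genes taken by the rule or held in a list, 3 also had no overlap in progenitors and are given here. The difference between media was not tested. Bcas1, a gene of newly formed oligodendrocytes, had log2 0.30 in progenitors and a log2 ratio of mean CPM of -1.11 in differentiation medium, where the mean was 873.1 CPM in controls and 403.0 CPM in targeted libraries. Col9a1, a collagen gene, read 7.01, 6.06 and 6.77 CPM in the controls, 2.41 and 2.45 CPM with guide 1 and 5.69, 3.50 and 4.51 CPM with guide 2 in progenitors (log2 -0.99). In differentiation medium its mean was 0.218 CPM in controls and 16.9 CPM in targeted libraries. Its log2 ratio there was 4.60, which the small constant added to both means made smaller, since the control level was so low. Pou3f1, a POU domain factor gene, had log2 -0.39 in progenitors and 0.52 in differentiation medium, where it went from 27.6 to 40.0 CPM. The progenitor calls were lost in 9 of 15 alternatives, with adjusted p up to 0.869 for Bcas1, lost in 10 of 15 alternatives, with adjusted p up to 0.319 for Col9a1 and lost in 6 of 15 alternatives, with adjusted p up to 0.226 for Pou3f1.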

How the results depend on the processing

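The count over both guides was 479 and became 816 with DESeq2, 237 with the transcript length offset, 274 with the replicate block and 152 without controls A and C, with 475, 225, 257 and 125 genes shared with the 479. Leaving out single libraries gave 149 to 550. For guide 1 the count of 372 became 801 with DESeq2, 167 with the length offset and 166 without controls A and C, was 287 with the replicate block, and ranged from 7 to 614 without single libraries. For guide 2 the count of 273 became 518, 110 and 125 under those 3 settings, 128 with the replicate block, and 78 to 254 without single libraries. Between guides the count of 0 became 31 with no count filter, 112 with DESeq2 and 16 without controls A and C, was 0 with the replicate block, and ranged from 0 to 26 without single libraries. The letters share only a name, so the replicate block is no paired analysis of known pairs. The fitted log2 changes of the followed genes kept their sign under the alternatives run. List medians near 0 did not all do so, and the guide 1 split of 176 higher and 196 lower became 93 and 73 without controls A and C. Sox6 kept its call in all 15. Of 41 genes taken by the rule, 16 were called in every alternative and 9 lost the call in more than 3. Of 91 other called list members, 15 were called in every alternative and 56 lost the call in more than 3. The causes were not tested. With 2 or 3 libraries a group, small changes of scarce genes are below what these data can show.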

Other observations

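Called genes had longer transcripts and higher levels than all genes tested. The median level was 95.2 CPM for genes that rose and 51.1 CPM for genes that fell, against 22.7 CPM for all. Length and level were not separated. The median length, relative to the median gene of a library, was 1.61 for genes that rose and 1.66 for genes that fell, against 1.08 for all genes tested, while the Spearman correlation across 13358 genes between log2 change and length was 0.063. Genes are not independent replicates. Control libraries A and C deviated from their group in opposite ways with length, and the part of this in the calls was not tested beyond the length offset.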
